A study of Homo sapiens with 16 samples.

Results

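The genes described here are 38 genes that encode protein-folding machinery, measured by RNA sequencing in the Ewing sarcoma cell line A673 and in 3 knockout lines made from it. They were chosen by symbol from a fixed list, drawn up with earlier results of these data known. Shares of members set beside those of all genes therefore describe the list and do not test it. Of them, 21 belong to the endoplasmic reticulum (ER genes, from HSPA5 to EDEM1) and 17 to the cytosol (cytosolic genes, from HSF1 on), out of 39249 genes in each table. All 38 were found once by symbol, and all passed the filter on low counts. The knockout lines, each monoclonal and therefore 1 clone, target MRPL45, CYC1 or UQCRFS1. MRPL45 belongs to the mitochondrial ribosome, whereas CYC1 and UQCRFS1 belong to complex III of the respiratory chain. Each knockout line and A673, which carries no knockout, received 500 nM SP-2509 or 0.1% DMSO for 48 h. SP-2509 is an inhibitor of the histone demethylase LSD1, and DMSO is its solvent. Each of the 8 combinations has 2 libraries of polyadenylated RNA, 16 libraries in all. No label says that the 2 came from separate cultures, so a p-value here covers the spread of the libraries only, and that spread may be technical.

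Proteins that enter the secretory pathway fold in the ER with the help of BiP (HSPA5), GRP94 (HSP90B1), lectin chaperones and disulfide isomerases. When unfolded proteins build up there, the membrane sensors IRE1 (ERN1), ATF6 and PERK start the unfolded protein response, in which spliced XBP1 and cleaved ATF6 raise the transcription of chaperone and degradation genes. In the cytosol, HSF1 is the main transcription factor of the heat shock response. It raises HSP70, HSP90, small heat shock proteins and their co-chaperones, which fold new proteins and rescue damaged ones.

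Total counts per library were between 24873597 and 56171036. The 8 genes fixed as markers of Ewing sarcoma were all detected, with CD99 between 573 and 967 CPM (counts scaled to a common library total), while leukocyte, epithelial and muscle markers had at most 19 counts in a library. CYC1 stood at 71.1 to 82.2 CPM in the 4 CYC1 knockout libraries, against 258.5 to 307.9 CPM in the other 12. UQCRFS1 stood at 58.6 and 60.9 CPM in its own knockout line with DMSO and at 77.8 and 88.2 CPM under SP-2509, whereas the other 12 libraries had 88.6 to 118.7 CPM. MRPL45 itself was not analysed here, so the label of that line was not checked on its targeted gene. A673 with DMSO had the least alike pair for the ER genes: their summed counts made up 0.654% of replicate 1 and 0.719% of replicate 2, and PDIA4 stood at 430.0 and 523 CPM. Values that rest on 1 of these libraries are given with and without it.

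Promoter sequences are shown because both gene groups are known for DNA elements that their transcription factors bind. RefSeq windows on build GRCh38.p14, from 250 bases before to 50 bases after a transcription start, were at hand for 35 of the 38 members, 20 ER genes and 15 cytosolic genes. The windows of both strands were searched for the ER stress response element (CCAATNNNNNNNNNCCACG), its second form (ATTGGNCCACG), the unfolded protein response element (TGACGTGG) and 3 units of the heat shock element (GAANNTTCNNGAA). The first occurred in the windows of 7 of the 20 ER genes (HSPA5, HSP90B1, CALR, CANX, PDIA6, CRELD2 and XBP1), none of the 15 cytosolic genes and 0.0916% of all 27305 genes with a window. The second form occurred in HYOU1, SDF2L1 and HERPUD1 and in 0.0696% of all genes. The third letters, which can overlap the second form, occurred in HYOU1 and in 0.927% of all genes. The heat shock element occurred in 4 cytosolic genes (HSPA8, HSP90AA1, HSP90AB1 and DNAJA1), no ER gene and 0.608% of all genes. A match is only a description of the letters, and its absence says nothing of a factor. The elements were picked because these gene groups are known for them, so the shares beside all genes are no test. Below, the whole windows of 5 genes whose values are followed in the next paragraphs are given 5′ to 3′ on the gene's own strand, with the matches in capitals. They lie at chr9:125241294-125241593 (minus strand, HSPA5), chr22:49918384-49918683 (plus strand, CRELD2), chr22:21642052-21642351 (plus strand, SDF2L1), chr16:56931892-56932191 (plus strand, HERPUD1) and chr11:123062087-123062386 (minus strand, HSPA8).
HSPA5: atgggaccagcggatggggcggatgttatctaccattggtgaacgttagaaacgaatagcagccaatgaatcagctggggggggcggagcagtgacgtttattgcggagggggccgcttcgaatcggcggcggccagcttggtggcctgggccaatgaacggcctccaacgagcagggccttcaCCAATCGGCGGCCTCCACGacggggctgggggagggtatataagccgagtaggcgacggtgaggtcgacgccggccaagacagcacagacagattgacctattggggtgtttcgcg
CRELD2: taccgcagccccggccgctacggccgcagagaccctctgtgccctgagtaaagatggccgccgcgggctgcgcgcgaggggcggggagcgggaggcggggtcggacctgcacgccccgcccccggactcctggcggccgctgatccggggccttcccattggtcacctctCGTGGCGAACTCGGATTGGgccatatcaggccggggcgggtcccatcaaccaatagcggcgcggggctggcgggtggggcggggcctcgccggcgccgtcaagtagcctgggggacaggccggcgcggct
SDF2L1: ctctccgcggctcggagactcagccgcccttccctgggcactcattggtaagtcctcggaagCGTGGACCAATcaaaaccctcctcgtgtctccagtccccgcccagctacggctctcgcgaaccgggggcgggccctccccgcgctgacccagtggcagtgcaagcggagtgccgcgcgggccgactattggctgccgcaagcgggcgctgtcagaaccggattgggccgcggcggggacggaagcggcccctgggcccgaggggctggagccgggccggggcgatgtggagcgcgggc
HERPUD1: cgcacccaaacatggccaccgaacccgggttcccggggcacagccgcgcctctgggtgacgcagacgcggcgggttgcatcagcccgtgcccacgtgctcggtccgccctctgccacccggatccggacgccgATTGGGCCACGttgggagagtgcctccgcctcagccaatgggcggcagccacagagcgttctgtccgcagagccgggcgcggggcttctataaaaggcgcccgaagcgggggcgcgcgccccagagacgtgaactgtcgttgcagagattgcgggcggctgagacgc
HSPA8: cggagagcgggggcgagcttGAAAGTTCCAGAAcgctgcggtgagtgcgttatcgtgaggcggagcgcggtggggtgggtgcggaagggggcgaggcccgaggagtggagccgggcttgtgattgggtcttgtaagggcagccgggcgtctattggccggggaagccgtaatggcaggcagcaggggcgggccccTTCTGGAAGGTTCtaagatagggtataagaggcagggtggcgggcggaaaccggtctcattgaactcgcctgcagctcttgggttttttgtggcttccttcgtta
The ER stress response element of HSPA5 starts 66 bases before the transcription start, and that of CRELD2 lies on the opposite strand with its first base 80 before it. SDF2L1 and HERPUD1 both hold the second form, at 188 and 117 bases before the start and on opposite strands. HSPA8 holds 2 heat shock elements, at 230 and 55 bases before the start. CANX, PDIA6 and XBP1 have more than 1 annotated start, and each position is from 1 of them. In each of these genes the window of another start held no match. The spacers of the element differed between the other ER genes, as its matches show, read on the strand that matches:
HSP90B1 at -194: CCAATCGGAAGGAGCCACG
HSP90B1 at -89: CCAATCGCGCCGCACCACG
CALR at -225: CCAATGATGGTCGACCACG
CANX at -151: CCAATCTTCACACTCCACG
PDIA6 at -86: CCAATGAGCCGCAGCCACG
XBP1 at -52: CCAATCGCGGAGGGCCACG

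With SP-2509, more ER genes were lower than higher in the CYC1 and UQCRFS1 knockout lines and A673, with as many higher as lower in MRPL45 knockout cells, and more cytosolic genes were lower than higher in every line. A gene was called where its Benjamini-Hochberg adjusted p from edgeR's quasi-likelihood test was under 0.05 over the 21633 genes tested. Of the 21 ER genes, 4 were called higher and 4 lower in MRPL45 knockout cells, 5 and 9 in CYC1 knockout cells, 5 and 13 in UQCRFS1 knockout cells, and 7 and 11 in A673. Among the 17 cytosolic genes, 1 was called higher and 5 lower in MRPL45 knockout cells, 2 and 9 in CYC1 knockout cells, 5 and 10 in UQCRFS1 knockout cells, and 4 and 10 in A673. Over all genes tested, 10.4% were called higher and 8.09% lower in MRPL45 knockout cells, 18.7% and 14.7% in CYC1 knockout cells, 29.6% and 25.1% in UQCRFS1 knockout cells, and 31.6% and 26.4% in A673. So the share of members called lower stood above the background in each line for both groups. The members were chosen with earlier results of these data known, so this describes the list and does not test it. The share called higher stood near or below it, except for the ER genes of the MRPL45 knockout line, where it was above. The 4 ER genes called higher there became 2 where only the libraries compared were fitted. That count also rested on single libraries, as given below. This background covers genes of all count levels. Median log2 fold changes of the ER genes were -0.01, -0.143, -0.295 and -0.157 in the MRPL45, CYC1 and UQCRFS1 knockout lines and A673, beside -0.007, 0.019, 0.0 and -0.026 over all genes. Those of the cytosolic genes were -0.122, -0.16, -0.258 and -0.364 in the same order of lines. Scaling by upper quartiles moved the median of all genes by -0.18 in A673 and by -0.14 in UQCRFS1 knockout cells, and left 4 of the 7 ER genes called higher in A673.

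The ER genes called higher in every line were HERPUD1, ERN1 and ATF6, and those called lower in every line were PDIA4, SDF2L1 and CRELD2. The cytosolic genes called in 1 direction in every line were HSF1, which was higher, and HSPA1A, HSPA1B, HSP90AA1 and HSPB1, which were lower. XBP1 and CRYAB were called in different directions between lines, and CCT5 was called in none. The only fall of CRYAB that was called, in MRPL45 knockout cells, passed narrowly (edgeR with Benjamini-Hochberg, adjusted p = 0.0499) and was not called by DESeq2. The rise of HERPUD1 in A673 is the weakest of these, and it vanished under upper-quartile scaling (log2 fold change -0.0). In bulk RNA, fewer cells of a kind and less RNA per cell cannot be told apart, and this holds for all values here.

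**Figure D1:**
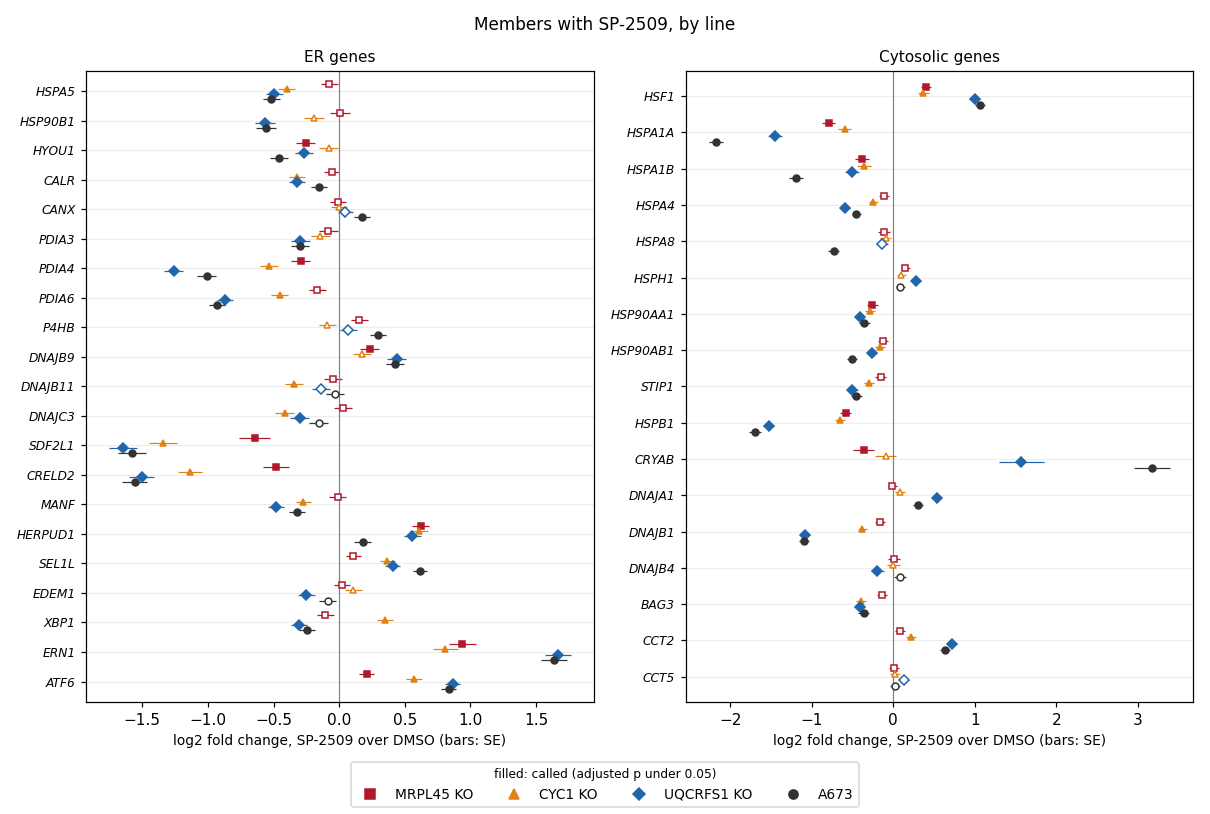
Log2 fold change of each member with SP-2509 over DMSO in the 3 knockout lines and A673, with ER genes on the left and cytosolic genes on the right. Bars are standard errors from the joint fit of all 16 libraries (2 per group), not the spread of a group, and filled markers passed the test. ERN1, ATF6 and HSF1 lie to the right of 0 in all lines, SDF2L1, CRELD2, HSPA1A and HSPB1 lie to the left, and CRYAB spans from -0.36 in MRPL45 knockout cells to 3.18 in A673.

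The members together took up a smaller part of the RNA with SP-2509. Summed ER counts made up 0.507% and 0.520% of the MRPL45 knockout libraries with SP-2509, against 0.541% and 0.548% with DMSO. The share was 0.483% and 0.480% against 0.588% and 0.564% in CYC1 knockout cells, and 0.416% and 0.417% against 0.586% and 0.584% in UQCRFS1 knockout cells. In A673 it was 0.521% and 0.530% with SP-2509 and 0.654% and 0.719% with DMSO. The groups did not overlap in any line, and the mean ER share was lower by 5.6%, 16.4%, 28.8% and 23.4% of its DMSO value in the MRPL45, CYC1 and UQCRFS1 knockout lines and A673. For the cytosolic genes it was lower by 11.3%, 12.7%, 18.1% and 29.6% in the same order. HSPA8, HSP90AA1 and HSP90AB1 dominate the cytosolic sum (HSPA8 alone gave 18.1% to 29.3% of it), and CANX, HSP90B1, CALR and HSPA5 the ER sum.

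**Figure D2:**
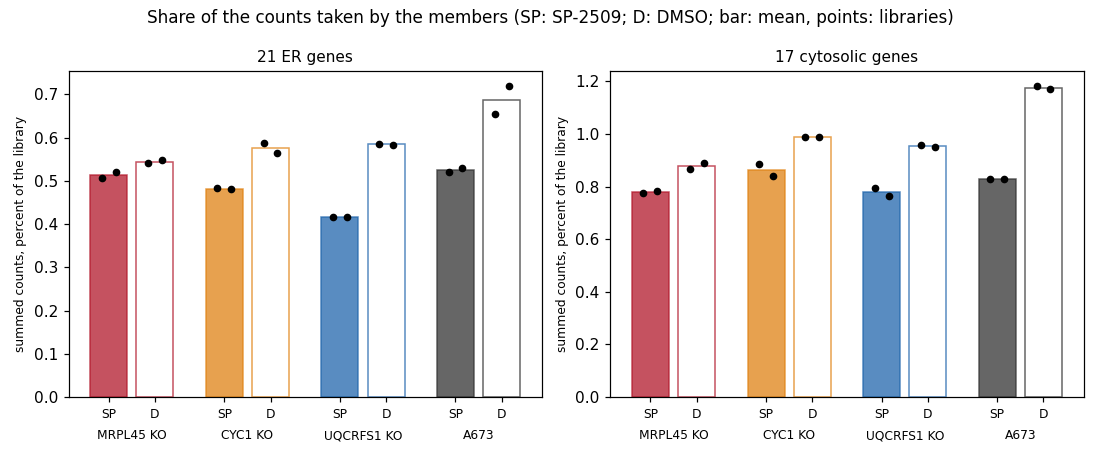
Summed counts of the 21 ER genes (left) and the 17 cytosolic genes (right) as percent of all counts of a library; bars are means of 2 libraries, points are the libraries, filled bars are SP-2509 and open bars DMSO. Every SP-2509 pair lies below its DMSO pair, and the A673 DMSO libraries are the highest of all, between 0.654% and 0.719% for the ER genes and at 1.17% and 1.18% for the cytosolic genes.

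Among the lumenal and lectin chaperones, BiP transcripts fell in all lines but the MRPL45 knockout line. HSPA5 (ENSG00000044574), the HSP70 of the ER and a repressor of its stress sensors, stood at 689.6 and 736 CPM under SP-2509, against 737 and 765 CPM under DMSO, in MRPL45 knockout cells. It stood at 478 and 471 CPM under SP-2509, against 639 and 611 CPM under DMSO, in CYC1 knockout cells, and at 431 and 436 CPM under SP-2509, against 598 and 624 CPM under DMSO, in UQCRFS1 knockout cells. In A673 it stood at 558 and 568 CPM under SP-2509, against 746 and 864 CPM under DMSO. The SP-2509 libraries were below the DMSO libraries in every line, by little in MRPL45 knockout cells (log2 fold change -0.08 ± 0.06, not called) and by more in CYC1 knockout cells (-0.40 ± 0.06), the UQCRFS1 knockout line (-0.50 ± 0.06) and A673 (-0.52 ± 0.06; edgeR with Benjamini-Hochberg, adjusted p = 1.82e-07; ± is the SE and n is 2 libraries per group throughout). HSP90B1, the HSP90 of the ER, had 766 and 739 CPM with SP-2509 and 1142 and 1085 CPM with DMSO in UQCRFS1 knockout cells, and 872 and 868 CPM with SP-2509 and 1206 and 1357 CPM with DMSO in A673. It fell in these lines (-0.57 ± 0.08 and -0.56 ± 0.08). In MRPL45 knockout cells the 2 groups of HSP90B1 overlapped, at 537 and 512 CPM under SP-2509, against 469.6 and 574 CPM under DMSO (0.01 ± 0.08). In CYC1 knockout cells HSP90B1 stood at 958 and 942 CPM under SP-2509, against 1122 and 1051 CPM under DMSO (-0.19 ± 0.07, adjusted p = 0.0504 by edgeR's quasi-likelihood test and 0.0289 with the replicate number as a block). HYOU1, an HSP110-type exchange factor for BiP, was called lower in the MRPL45 and UQCRFS1 knockout lines and in A673 (-0.26 ± 0.07, -0.27 ± 0.07 and -0.46 ± 0.07). That call was lost in MRPL45 knockout cells without any 1 of the 4 libraries, and in UQCRFS1 knockout cells without DMSO replicate 2. The lectins CALR and CANX, which hold glycoproteins until they are folded, moved little. CALR was lower in the CYC1 and UQCRFS1 knockout lines (-0.32 ± 0.06 and -0.32 ± 0.06) and in A673 (-0.15 ± 0.06, a call lost without DMSO replicate 2 or SP-2509 replicate 2). CANX was higher in A673 (0.17 ± 0.06), but its log2 fold change was -0.01 under upper-quartile scaling, and its call was lost without DMSO replicate 1 or without either SP-2509 library.

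The disulfide isomerases, which form and rearrange disulfide bonds in the ER, did not move as 1 group. PDIA4 (ENSG00000155660) fell in every line and P4HB rose in A673. PDIA4 had 184 and 193 CPM under SP-2509, against 233 and 230.1 CPM under DMSO, in MRPL45 knockout cells, and 287 and 282 CPM under SP-2509, against 416 and 409 CPM under DMSO, in CYC1 knockout cells. The UQCRFS1 knockout line had 206 and 203 CPM under SP-2509, against 463 and 517 CPM under DMSO, and A673 had 233 and 241 CPM under SP-2509, against 430.0 and 523 CPM under DMSO. With SP-2509 the libraries lay between 184.5 and 287.2 CPM, while with DMSO the MRPL45 knockout line was below the other lines. The log2 fold changes were -0.29 ± 0.07 in MRPL45 knockout cells (lost without SP-2509 replicate 1), -0.53 ± 0.07 in CYC1 knockout cells, -1.26 ± 0.07 in UQCRFS1 knockout cells and -1.01 ± 0.07 in A673 (edgeR with Benjamini-Hochberg, adjusted p = 2.41e-13 in UQCRFS1 knockout cells). PDIA6, which also acts on the IRE1 sensor, was called lower in the CYC1 and UQCRFS1 knockout lines and A673 (-0.45 ± 0.06, -0.87 ± 0.06 and -0.93 ± 0.06), and stood at -0.17 ± 0.06 in MRPL45 knockout cells, where the edgeR adjusted p was 0.0656, and 0.0418 with the replicate block. PDIA3, the partner of the lectin chaperones, was lower in UQCRFS1 knockout cells and A673 (-0.30 ± 0.07 and -0.30 ± 0.07). P4HB, which also serves as a subunit of collagen prolyl hydroxylase, was called higher in A673 (0.29 ± 0.06), with 492 and 491 CPM under SP-2509, against 382 and 419.9 CPM under DMSO. That call was lost with upper-quartile scaling and with the 5 CPM filter.

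SDF2L1 and CRELD2 had the largest falls of the ER genes in each of the 4 lines. SDF2L1 (ENSG00000128228), a co-chaperone of ERdj3 and BiP, stood at 6.86 and 7.32 CPM under SP-2509, against 11.4 and 10.8 CPM under DMSO, in MRPL45 knockout cells. It stood at 8.21 and 8.27 CPM under SP-2509, against 19.9 and 21.8 CPM under DMSO, in CYC1 knockout cells, at 10.3 and 9.14 CPM under SP-2509, against 26.7 and 34.2 CPM under DMSO, in UQCRFS1 knockout cells, and at 8.75 and 8.84 CPM under SP-2509, against 24.2 and 28.4 CPM under DMSO, in A673. The groups did not overlap in any line. The log2 fold changes were -0.64 ± 0.12, -1.34 ± 0.11, -1.65 ± 0.10 and -1.58 ± 0.11 in that order of lines (edgeR with Benjamini-Hochberg, adjusted p = 3.21e-04 in MRPL45 knockout cells and 6.13e-12 in A673). CRELD2 (ENSG00000184164), a secreted protein with isomerase activity that is induced by ER stress, followed at 11.3 and 11.2 CPM under SP-2509, against 14.6 and 16.97 CPM under DMSO, in MRPL45 knockout cells, and 14.6 and 13.4 CPM under SP-2509, against 29.7 and 32.0 CPM under DMSO, in CYC1 knockout cells. It had 9.43 and 9.58 CPM under SP-2509, against 24.6 and 29.3 CPM under DMSO, in UQCRFS1 knockout cells, and 9.53 and 9.22 CPM under SP-2509, against 25.7 and 29.5 CPM under DMSO, in A673. Again no group overlapped, with log2 fold changes of -0.48 ± 0.10, -1.14 ± 0.09, -1.50 ± 0.09 and -1.56 ± 0.09. These are low levels, and the highest SDF2L1 library had 34.2 CPM. MANF, a secreted ER protein that binds BiP, fell in the CYC1 and UQCRFS1 knockout lines and A673 (-0.27 ± 0.06, -0.48 ± 0.06 and -0.32 ± 0.06), and stood at -0.01 ± 0.07 in MRPL45 knockout cells.

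The ER J-proteins, which hand substrates to BiP, went their own ways. DNAJB9 (ERdj4), which also represses IRE1, was called higher in MRPL45 knockout cells (0.23 ± 0.07), the UQCRFS1 knockout line (0.44 ± 0.07) and A673 (0.42 ± 0.07), where it had 26.4 and 27.7 CPM under SP-2509, against 20.9 and 19.4 CPM under DMSO. The call in MRPL45 knockout cells was lost without DMSO replicate 1 or SP-2509 replicate 2, and in CYC1 knockout cells (0.17 ± 0.07) it passed only with the replicate block (edgeR adjusted p = 0.0435, against 0.0599 without it). DNAJB11 (ERdj3), the partner of SDF2L1, was called lower in CYC1 knockout cells (-0.34 ± 0.07) and stood at -0.03 ± 0.07 in A673. DNAJC3 (p58IPK), which also inhibits PERK, was lower in the CYC1 and UQCRFS1 knockout lines (-0.41 ± 0.07 and -0.30 ± 0.07), and in A673 its adjusted p was 0.0598, or 0.0423 with the replicate block (log2 fold change -0.16 ± 0.07 by edgeR).

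Of the 3 members of ER-associated degradation, which clears misfolded proteins from the ER, HERPUD1 was called higher in all 4 lines, SEL1L in 3 lines and EDEM1 in none. HERPUD1 (ENSG00000051108), a membrane scaffold of the degradation complex, stood at 56.8 and 58.5 CPM under SP-2509, against 37.4 and 37.6 CPM under DMSO, in MRPL45 knockout cells. It stood at 41.5 and 42.2 CPM under SP-2509, against 28.7 and 26.2 CPM under DMSO, in CYC1 knockout cells, at 62.9 and 58.3 CPM under SP-2509, against 41.6 and 40.8 CPM under DMSO, in UQCRFS1 knockout cells, and at 59.4 and 57.3 CPM under SP-2509, against 54.2 and 48.8 CPM under DMSO, in A673. The SP-2509 libraries were above the DMSO libraries in each line, and with DMSO the knockout lines lay below A673. Log2 fold changes were 0.62 ± 0.07, 0.61 ± 0.07 and 0.56 ± 0.06 in the MRPL45, CYC1 and UQCRFS1 knockout lines (edgeR with Benjamini-Hochberg, adjusted p = 3.15e-07, 9.13e-08 and 5.16e-08) and 0.18 ± 0.06 in A673. In A673 that call was lost without DMSO replicate 2 or without either SP-2509 library. The other members whose windows hold the second form of the element printed above are SDF2L1 and HYOU1, and HERPUD1 moved opposite to SDF2L1 in every line and opposite to HYOU1 where HYOU1 was called. SEL1L, the scaffold of the same ligase complex, was higher in the CYC1 and UQCRFS1 knockout lines and A673 (0.37 ± 0.06, 0.41 ± 0.06 and 0.62 ± 0.06), with 138 and 141 CPM under SP-2509, against 90.5 and 91.9 CPM under DMSO, in A673. EDEM1, which acts on misfolded glycoproteins in this pathway, was called only in UQCRFS1 knockout cells, where it was lower (-0.25 ± 0.06).

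Both sensors among the members, ERN1 and ATF6, rose in every line. ERN1 (ENSG00000178607), which encodes the kinase and RNase IRE1, stood at 23.9 and 22.2 CPM under SP-2509, against 12.6 and 11.3 CPM under DMSO, in MRPL45 knockout cells. It stood at 23.7 and 25.1 CPM under SP-2509, against 14.4 and 13.4 CPM under DMSO, in CYC1 knockout cells, and at 31.1 and 31.2 CPM under SP-2509, against 9.50 and 10.1 CPM under DMSO, in UQCRFS1 knockout cells. In A673 it had 41.0 and 38.8 CPM under SP-2509, against 10.9 and 14.8 CPM under DMSO. All 8 SP-2509 libraries lay above all 8 DMSO libraries, whose highest was 14.8 CPM. The log2 fold changes were 0.94 ± 0.10, 0.81 ± 0.10, 1.67 ± 0.10 and 1.64 ± 0.10 in the MRPL45, CYC1 and UQCRFS1 knockout lines and A673 (edgeR with Benjamini-Hochberg, adjusted p = 5.89e-07 in MRPL45 knockout cells and 8.05e-13 in A673). ATF6, the sensor that is cut to a transcription factor in the Golgi, rose by 0.21 ± 0.06, 0.57 ± 0.06, 0.87 ± 0.06 and 0.83 ± 0.06 on the log2 scale, and the call in MRPL45 knockout cells was lost without SP-2509 replicate 2. XBP1 (ENSG00000100219), whose mRNA IRE1 splices, had 41.1 and 46.8 CPM under SP-2509, against 46.9 and 48.3 CPM under DMSO, in MRPL45 knockout cells, and 95.3 and 94.0 CPM under SP-2509, against 75.8 and 72.5 CPM under DMSO, in CYC1 knockout cells. It had 81.6 and 80.7 CPM under SP-2509, against 98.6 and 102 CPM under DMSO, in UQCRFS1 knockout cells, and 92.0 and 97.4 CPM under SP-2509, against 108 and 116 CPM under DMSO, in A673. It was thus higher in CYC1 knockout cells (0.35 ± 0.06), lower in UQCRFS1 knockout cells and A673 (-0.31 ± 0.06 and -0.24 ± 0.06), and not called in MRPL45 knockout cells (-0.11 ± 0.06). Gene counts do not tell spliced from unspliced XBP1.

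**Figure D3:**
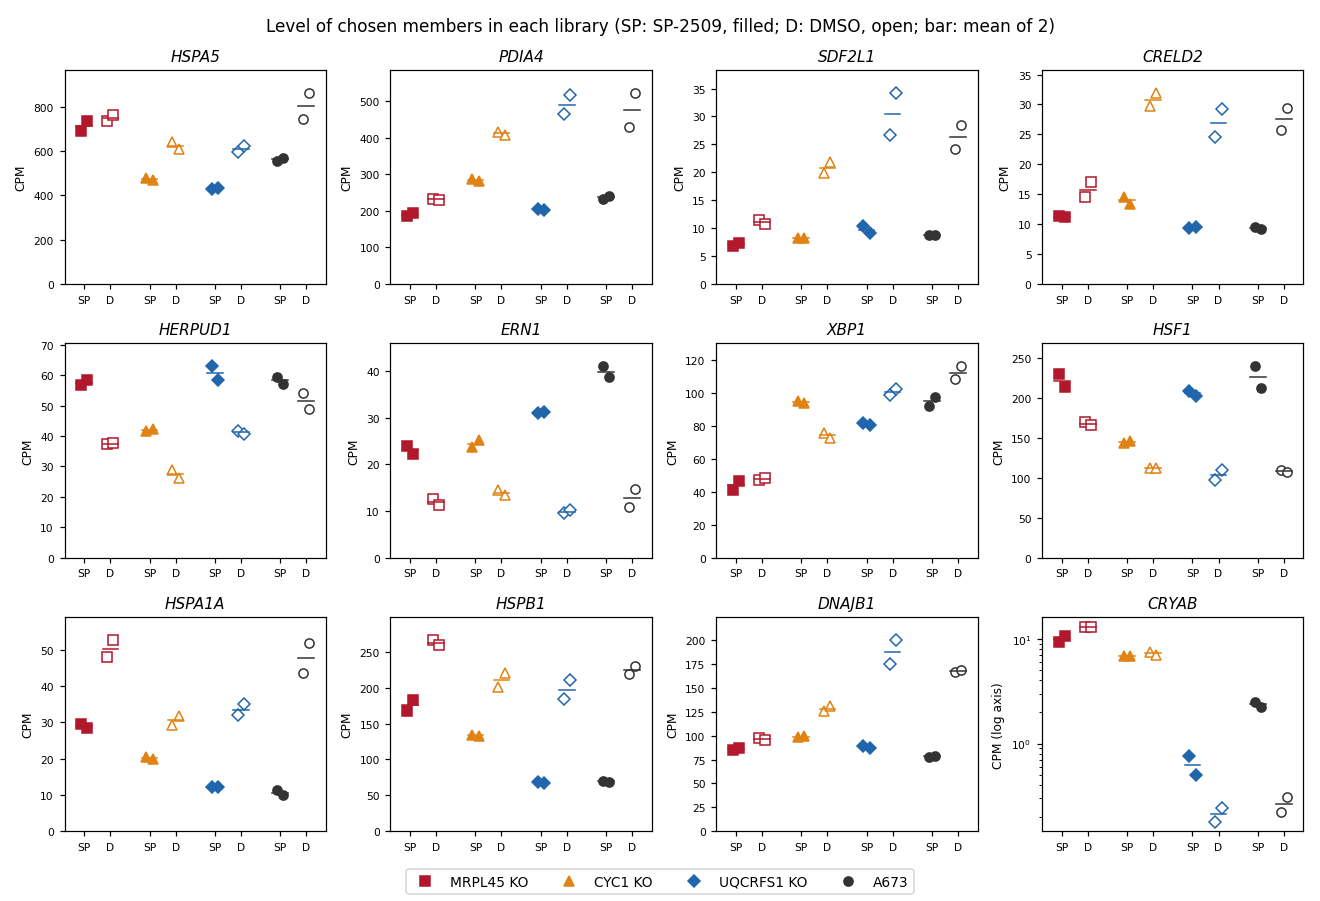
Level in CPM of 12 members in each of the 16 libraries, by line, with SP-2509 (SP, filled) left of DMSO (D, open); the short bar is the mean of 2 libraries, and the CRYAB axis is logarithmic. PDIA4, SDF2L1, CRELD2, HSPA1A and HSPB1 drop with SP-2509 in each line, ERN1 and HSF1 rise in each line, and CRYAB is near 0.2 CPM with DMSO in A673 and the UQCRFS1 knockout line but between 7.0 and 13.0 CPM in the other 2 lines.

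In the cytosol, HSF1 (ENSG00000185122) rose in every line, while HSPA1A and HSPB1 fell in every line. It stood at 229.9 and 213 CPM under SP-2509, against 169.8 and 166 CPM under DMSO, in MRPL45 knockout cells. The CYC1 knockout line had 144 and 145 CPM under SP-2509, against 112 and 113 CPM under DMSO, and the UQCRFS1 knockout line had 209 and 202 CPM under SP-2509, against 97.0 and 109 CPM under DMSO. In A673 it stood at 239 and 212 CPM under SP-2509, against 109 and 107 CPM under DMSO. The SP-2509 libraries lay above the DMSO libraries in every line, with the widest gaps in UQCRFS1 knockout cells and A673. The log2 fold changes were 0.40 ± 0.07 and 0.37 ± 0.07 in the MRPL45 and CYC1 knockout lines, 1.00 ± 0.07 in UQCRFS1 knockout cells and 1.06 ± 0.07 in A673 (edgeR with Benjamini-Hochberg, adjusted p = 1.06e-04, 9.48e-05, 3.41e-12 and 8.67e-13).

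HSPA1A and HSPA1B, the stress-induced HSP70 genes, fell in all 4 lines. They are near-identical copies: 71.2% of the 75-base stretches of the HSPA1A transcript occur in another gene and 73.2% of those of HSPA1B, so the split of reads between them is uncertain. HSPA1A (ENSG00000204389) had 29.7 and 28.4 CPM under SP-2509, against 47.9 and 52.6 CPM under DMSO, in MRPL45 knockout cells, and 20.4 and 19.9 CPM under SP-2509, against 29.3 and 31.7 CPM under DMSO, in CYC1 knockout cells. It had 12.2 and 12.2 CPM under SP-2509, against 31.9 and 34.9 CPM under DMSO, in UQCRFS1 knockout cells, and 11.3 and 9.85 CPM under SP-2509, against 43.5 and 51.9 CPM under DMSO, in A673. HSPA1B had 25.7 and 22.1 CPM under SP-2509, against 55.7 and 53.8 CPM under DMSO, in A673, and 24.97 and 25.4 CPM under SP-2509, against 34.3 and 37.1 CPM under DMSO, in UQCRFS1 knockout cells. No groups overlapped for either copy in any line, and A673 had the lowest HSPA1A values with SP-2509. Log2 fold changes of HSPA1A were -0.79 ± 0.08, -0.60 ± 0.08, -1.45 ± 0.09 and -2.17 ± 0.09, and those of HSPA1B were -0.38 ± 0.08 (lost without SP-2509 replicate 2), -0.35 ± 0.09, -0.50 ± 0.09 and -1.20 ± 0.09, in the MRPL45, CYC1 and UQCRFS1 knockout lines and A673. Summed over both copies, the log2 fold changes were -0.56, -0.47, -0.89 and -1.57 (edgeR with Benjamini-Hochberg, adjusted p = 4.28e-06, 1.44e-05, 1.43e-10 and 3.51e-15). HSPA8, the constitutive HSP70 whose 2 heat shock elements are printed above, was called only in A673, where it fell to 1889.6 and 1861 CPM with SP-2509, against 3285 and 2948 CPM with DMSO (-0.73 ± 0.07). HSPA4, an HSP110-type exchange factor, was lower in the CYC1 and UQCRFS1 knockout lines and A673 (-0.24 ± 0.06, -0.59 ± 0.06 and -0.45 ± 0.06). HSPH1, another HSP110, was instead higher in UQCRFS1 knockout cells (0.28 ± 0.05), and in MRPL45 knockout cells (0.15 ± 0.05) it was called only with the replicate block (edgeR adjusted p = 0.0479, against 0.0558 without it), which brought the cytosolic genes called higher there from 1 to 2.

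The HSP90 group fell by smaller amounts. HSP90AA1, the inducible cytosolic HSP90, was lower in all lines, with log2 fold changes of -0.26 ± 0.06, -0.28 ± 0.06, -0.40 ± 0.06 and -0.35 ± 0.06 in the MRPL45, CYC1 and UQCRFS1 knockout lines and A673. The call in MRPL45 knockout cells was lost without DMSO replicate 2 or SP-2509 replicate 1. HSP90AB1, the constitutive form, was lower in the CYC1 and UQCRFS1 knockout lines and A673 (-0.16 ± 0.06, -0.26 ± 0.06 and -0.51 ± 0.06), and in CYC1 knockout cells its call was lost without any 1 of the 4 libraries. STIP1 (HOP), which passes clients from HSP70 to HSP90, had 290.3 and 272 CPM under SP-2509, against 295 and 332 CPM under DMSO, in MRPL45 knockout cells, where the groups lay next to each other (-0.16 ± 0.07, not called). It stood at 505 and 491 CPM under SP-2509, against 602 and 620.3 CPM under DMSO, in CYC1 knockout cells, at 348 and 315 CPM under SP-2509, against 471 and 466 CPM under DMSO, in UQCRFS1 knockout cells, and at 486 and 458 CPM under SP-2509, against 635 and 657 CPM under DMSO, in A673. These 3 falls were called (-0.29 ± 0.06, -0.50 ± 0.07 and -0.45 ± 0.06).

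The small heat shock proteins, which hold unfolded proteins in solution, split into a gene that fell in all lines and a gene that rose in 2. HSPB1 (ENSG00000106211; HSP27) had 168 and 183 CPM under SP-2509, against 266 and 259.5 CPM under DMSO, in MRPL45 knockout cells, and 135 and 133 CPM under SP-2509, against 200.3 and 221 CPM under DMSO, in CYC1 knockout cells. It had 69.2 and 67.6 CPM under SP-2509, against 184 and 211 CPM under DMSO, in UQCRFS1 knockout cells, and 70.7 and 68.2 CPM under SP-2509, against 219 and 231 CPM under DMSO, in A673. No groups overlapped, and the log2 fold changes were -0.58 ± 0.07, -0.65 ± 0.07, -1.53 ± 0.07 and -1.70 ± 0.07 (edgeR with Benjamini-Hochberg, adjusted p = 1.09e-06, 3.95e-08, 2.19e-15 and 2.96e-16). CRYAB (ENSG00000109846; alpha B crystallin) stood at 0.76 and 0.5 CPM under SP-2509, against 0.18 and 0.24 CPM under DMSO, in UQCRFS1 knockout cells, and at 2.47 and 2.25 CPM under SP-2509, against 0.22 and 0.31 CPM under DMSO, in A673. These are 37 and 25 reads with SP-2509 against 9 and 12 with DMSO in UQCRFS1 knockout cells, and 120 and 118 against 10 and 12 in A673. It rose in both (1.57 ± 0.27 and 3.18 ± 0.22, edgeR with Benjamini-Hochberg, adjusted p = 2.52e-05 and 7.35e-12). CRYAB in MRPL45 knockout cells had 9.42 and 10.6 CPM under SP-2509, against 13.0 and 12.8 CPM under DMSO (-0.36 ± 0.13, a call lost without any 1 of the 4 libraries), and in CYC1 knockout cells 6.79 and 6.86 CPM under SP-2509, against 7.52 and 7.04 CPM under DMSO (-0.09 ± 0.13). Of the 75-base stretches of the longest coding transcript of CRYAB, 17.03% also occur in other genes, HSPB2 first. Whether counting used strand is not given in the sources used here. Other members shared more, namely CCT5 (47.54%), PDIA6 (34.01%), PDIA3 (29.73%) and DNAJB11 (29.52%), so the split of their reads may be uncertain too.

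Of the J-proteins of the cytosol and BAG3, DNAJB1 (ENSG00000132002), the HSP40 partner of HSP70, had the largest log2 fold changes in UQCRFS1 knockout cells and A673. It had 85.4 and 86.8 CPM under SP-2509, against 97.3 and 95.9 CPM under DMSO, in MRPL45 knockout cells, and 98.3 and 99.1 CPM under SP-2509, against 125 and 131 CPM under DMSO, in CYC1 knockout cells. It had 89.1 and 87.6 CPM under SP-2509, against 175 and 200.04 CPM under DMSO, in UQCRFS1 knockout cells, and 78.1 and 78.9 CPM under SP-2509, against 166 and 169 CPM under DMSO, in A673. With SP-2509 the 4 lines lay between 78.1 and 99.1 CPM, and with DMSO between 95.9 and 200.04 CPM. Log2 fold changes were -0.38 ± 0.06, -1.09 ± 0.06 and -1.09 ± 0.06 in the CYC1 and UQCRFS1 knockout lines and A673, and -0.17 ± 0.06 in MRPL45 knockout cells (edgeR adjusted p = 0.0596, and 0.0382 with the replicate block). BAG3, an exchange factor that steers HSP70 clients to autophagy, was lower in the CYC1 and UQCRFS1 knockout lines and A673 (-0.40 ± 0.06, -0.41 ± 0.06 and -0.36 ± 0.06). DNAJA1, an HSP40 of another class and a member with a heat shock element, rose in UQCRFS1 knockout cells and A673 (0.53 ± 0.06 and 0.30 ± 0.06). DNAJB4 was called only in UQCRFS1 knockout cells (-0.19 ± 0.08), a call lost without either DMSO library or SP-2509 replicate 2.

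The chaperonin TRiC, a ring that folds actin and tubulin, was represented by CCT2 and CCT5. CCT2 rose to 1154 and 1048 CPM with SP-2509, against 662 and 671 CPM with DMSO, in UQCRFS1 knockout cells and to 990.0 and 1007 CPM, against 658 and 628 CPM, in A673 (0.72 ± 0.06 and 0.64 ± 0.06). It stood at 881 and 867 CPM under SP-2509, against 759 and 746 CPM under DMSO, in CYC1 knockout cells (0.22 ± 0.06, lost without either DMSO library or SP-2509 replicate 2, which left 1 cytosolic gene called higher there) and at 507 and 509 CPM under SP-2509, against 458 and 500.2 CPM under DMSO, in MRPL45 knockout cells (0.08 ± 0.06). CCT5, a subunit of the same ring, was not called in any line, with log2 fold changes from 0.01 ± 0.06 in MRPL45 knockout cells to 0.13 ± 0.06 in UQCRFS1 knockout cells. In A673 its value of 0.02 ± 0.06 turned to -0.16 with upper-quartile scaling and -0.15 with the stricter filter. It was called lower there in both of these settings.

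The number of members called in MRPL45 knockout cells rested on few libraries. Without its SP-2509 replicate 2, 2 ER genes were called higher in place of 4, and without SP-2509 replicate 1, 2 were called lower in place of 4. The count of 5 cytosolic genes called lower became 3 without DMSO replicate 2 or without either SP-2509 library.

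With DMSO, most members that differed between a knockout line and A673 were lower in the knockout line. In MRPL45 knockout cells 5 ER genes were called higher and 11 lower, in CYC1 knockout cells 2 and 10, and in UQCRFS1 knockout cells 2 and 10. The same counts for the cytosolic genes were 4 and 10, 2 and 10, and 1 and 10. Over all genes tested 28.9% were called higher and 29% lower in MRPL45 knockout cells, 21.4% and 16.2% in CYC1 knockout cells, and 15.8% and 15% in UQCRFS1 knockout cells. The share of members called lower was therefore above the background in each line, again only as a description of the chosen list. All 3 comparisons use the same 2 A673 libraries, of which replicate 2 was the higher one for most ER genes, so they are not independent of each other. Without A673 replicate 2, 6 ER genes were called lower in place of 10 in CYC1 knockout cells and again in UQCRFS1 knockout cells, and 4 were called higher in CYC1 knockout cells in place of 2. Without A673 replicate 1 the ER genes called higher became 1 in both lines. The clone and the knockout cannot be told apart, since each gene was knocked out in 1 clone.

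**Figure D4:**
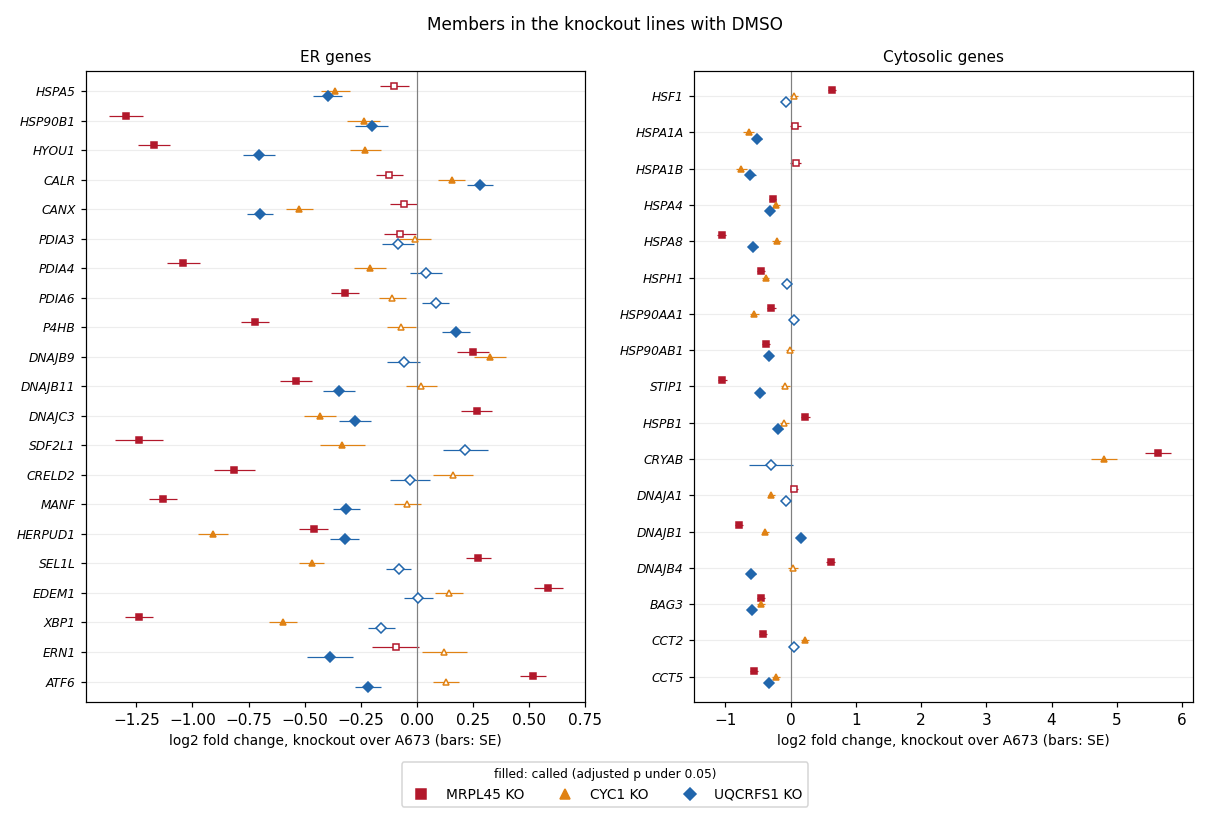
Log2 fold change of each member in the 3 knockout lines over A673, all with DMSO. Bars are standard errors from the 1 fit of all 16 libraries (2 per group), not the spread of a group, and filled markers passed the test. HSP90B1, XBP1, SDF2L1, HYOU1 and MANF of the MRPL45 knockout line lie below -1, EDEM1, ATF6, HSF1 and DNAJB4 of that line lie above 0.5, and CRYAB lies near 5 in the MRPL45 and CYC1 knockout lines.

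In MRPL45 knockout cells, 6 ER genes were lower than in A673 by more than 1 on the log2 scale. HSP90B1 fell to 469.6 and 574 CPM in the knockout line, against 1206 and 1357 CPM in A673 (-1.30 ± 0.08; edgeR with Benjamini-Hochberg, adjusted p = 4.22e-13). XBP1 fell to 46.9 and 48.3 CPM, against 108 and 116 CPM in A673 (-1.24 ± 0.06; edgeR with Benjamini-Hochberg, adjusted p = 2.42e-14). SDF2L1 (-1.24 ± 0.11), HYOU1 (-1.17 ± 0.07), MANF (-1.13 ± 0.06) and PDIA4 (-1.04 ± 0.07) followed. Higher in this line were the degradation genes EDEM1 (0.59 ± 0.06) and SEL1L (0.27 ± 0.06), the sensor ATF6 (0.52 ± 0.06) and the J-proteins DNAJC3 (0.27 ± 0.07) and DNAJB9 (0.25 ± 0.07), while HERPUD1 was lower (-0.46 ± 0.07). The call of DNAJC3 was lost without replicate 1 of either line, and that of DNAJB9 without replicate 2 of either. HSPA5 itself was not called (-0.10 ± 0.06), with 737 and 765 CPM in MRPL45 knockout cells and 746 and 864 CPM in A673. Of the cytosolic genes, HSPA8 (-1.06 ± 0.07), STIP1 (-1.05 ± 0.07) and DNAJB1 (-0.80 ± 0.06) were lower and HSF1 (0.64 ± 0.07) and DNAJB4 (0.61 ± 0.08) higher. HSPA1A and HSPA1B were not called there (0.07 ± 0.08 and 0.08 ± 0.08).

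CRYAB showed the largest difference of any member between lines. It stood at 13.0 and 12.8 CPM (679 and 389 reads) in MRPL45 knockout cells and at 7.52 and 7.04 CPM (348 and 313 reads) in CYC1 knockout cells, against 0.22 and 0.31 CPM (10 and 12 reads) in A673, all with DMSO. The log2 fold changes were 5.63 ± 0.20 and 4.80 ± 0.20 (edgeR with Benjamini-Hochberg, adjusted p = 1.78e-17 and 2.16e-15). The UQCRFS1 knockout line, with 0.18 and 0.24 CPM, was not called against A673 (-0.30 ± 0.34). The DMSO libraries of A673 and of the UQCRFS1 knockout line held only 9 to 12 reads of CRYAB each.

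The CYC1 and UQCRFS1 knockout lines, whose knockouts target subunits of the same complex, both had HSPA5, CANX, both HSPA1 copies and BAG3 below A673, and BAG3 was below it in MRPL45 knockout cells as well (-0.45 ± 0.06). HSPA5 was lower in both (-0.36 ± 0.06 and -0.40 ± 0.06), with 639 and 611 CPM in CYC1 knockout cells and 598 and 624 CPM in UQCRFS1 knockout cells, against 746 and 864 CPM in A673. CANX (-0.52 ± 0.06 and -0.70 ± 0.06), HSPA1B (-0.76 ± 0.09 and -0.62 ± 0.08), HSPA1A (-0.64 ± 0.08 and -0.51 ± 0.08) and BAG3 (-0.46 ± 0.06 and -0.60 ± 0.06) were lower in both as well. Both HSPA1 copies summed stood at -0.70 in CYC1 knockout cells and -0.57 in UQCRFS1 knockout cells on the log2 scale. CALR was higher in both (0.15 ± 0.06 and 0.28 ± 0.06), and in CYC1 knockout cells this was lost without A673 replicate 1 or either knockout library, with each other scaling and filter tried and with the compared libraries alone. HERPUD1 was -0.91 ± 0.07 in CYC1 knockout cells and -0.32 ± 0.06 in UQCRFS1 knockout cells, and XBP1 was -0.60 ± 0.06 and -0.16 ± 0.06 (not called, but called with the replicate block, with an edgeR adjusted p of 0.0332). HYOU1 was -0.23 ± 0.07 in the CYC1 and -0.70 ± 0.07 in UQCRFS1 knockout cells. HSP90AA1 was called lower in CYC1 knockout cells (-0.55 ± 0.06) and stood at 0.05 ± 0.06 in UQCRFS1 knockout cells. DNAJB4 was called lower in UQCRFS1 knockout cells (-0.60 ± 0.08) and stood at 0.04 ± 0.08 in CYC1 knockout cells. The difference between these 2 knockout lines was not tested.

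Several of the smaller calls against A673 rested on 1 library. In CYC1 knockout cells the calls of HSP90B1 and HYOU1 were lost without A673 replicate 2 or knockout replicate 2, those of SDF2L1 and CCT2 without A673 replicate 2 or knockout replicate 1, and that of PDIA4 without A673 replicate 2 or either knockout library. The call of HSPA8 was lost without A673 replicate 1 or knockout replicate 2, and that of CCT5 without knockout replicate 2. In UQCRFS1 knockout cells the calls of DNAJC3 and ATF6 were lost without A673 replicate 2, those of ERN1 and HSPB1 without A673 replicate 2 or knockout replicate 1, that of HSP90B1 without A673 replicate 2 or either knockout library, and that of P4HB without A673 replicate 1 or knockout replicate 2. The replicate block added calls for EDEM1 in CYC1 knockout cells and SDF2L1 in UQCRFS1 knockout cells (edgeR adjusted p = 0.0444 and 0.0411). The 1 cytosolic gene called higher there, DNAJB1 (0.16 ± 0.06), was not called without either A673 library or without knockout replicate 2, which left 0. HSPB1 in MRPL45 knockout cells (0.23 ± 0.07) was lost without A673 replicate 1 or knockout replicate 2. The cytosolic genes called higher in CYC1 knockout cells became 1 in place of 2 without A673 replicate 2 or knockout replicate 1, and the ER genes called higher became 1 without either CYC1 knockout library and, in UQCRFS1 knockout cells, without its replicate 2.

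The response to SP-2509 itself differed between lines. Each difference was tested as the log2 fold change with SP-2509 in a knockout line minus that in A673, so a positive value means a smaller fall or a larger rise in the knockout line. Of the ER genes, 8 were called higher and 3 lower in MRPL45 knockout cells, 7 and 5 in CYC1 knockout cells, and 1 and 0 in UQCRFS1 knockout cells. Of the cytosolic genes, 8 were called higher and 4 lower, 6 and 4, and 3 and 1. Over all genes tested, 14.5% were called higher and 24.2% lower in MRPL45 knockout cells, 12.8% and 21% in CYC1 knockout cells, and 3.02% and 7.68% in UQCRFS1 knockout cells. The share of members called higher was above the background for both gene groups in the MRPL45 and CYC1 knockout lines. In UQCRFS1 knockout cells it was above for the cytosolic genes, where it rests on 3 genes. With 1 ER gene called higher there, the ER share was near the background. The response was smaller in size than in A673 for 19 of 21 ER and 16 of 17 cytosolic genes in MRPL45 knockout cells, beside 79.4% of all genes. It was smaller for 15 of 21 and 14 of 17 in CYC1 knockout cells, beside 74.95% of all genes, and for 8 of 21 and 8 of 17 in UQCRFS1 knockout cells, beside 55.9% of all genes. The 3 comparisons share the 4 A673 libraries. Those with DMSO also enter the A673 response and the comparisons of knockout lines with A673 above, so these results are not independent of each other. Upper-quartile scaling moved the median difference of all genes by 0.15 in the MRPL45 and the CYC1 knockout lines. With it, the ER genes called higher became 14 and 11, and those called lower in CYC1 knockout cells became 2.

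**Figure D5:**
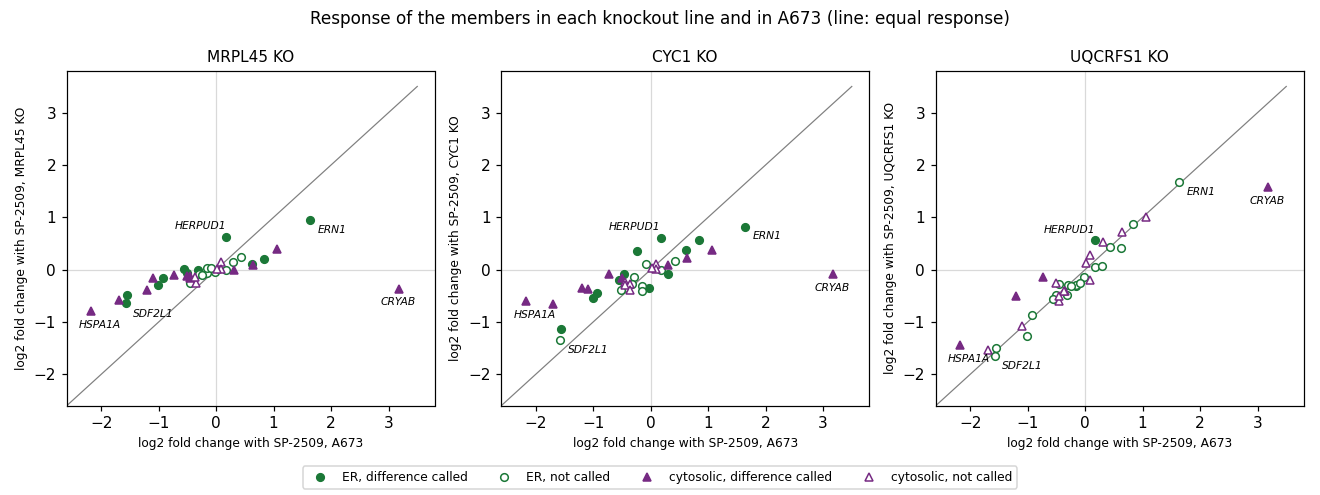
Log2 fold change of each member with SP-2509 in a knockout line (vertical) against that in A673 (horizontal); the diagonal marks an equal response, circles are ER genes, triangles cytosolic genes, and filled markers have a called difference. In the MRPL45 and CYC1 knockout lines the points lie flatter than the diagonal, and in UQCRFS1 knockout cells they lie along it except for CRYAB, HSPA1A, HSPA1B, HSPA8 and HERPUD1.

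Members whose response differed from A673 by 1 or more on the log2 scale were HSPA1A, HSPB1, CRELD2 and CRYAB. For HSPA1A the fall was smaller by 1.38 ± 0.12 in MRPL45 knockout cells, 1.58 ± 0.12 in CYC1 knockout cells and 0.72 ± 0.12 in UQCRFS1 knockout cells (edgeR with Benjamini-Hochberg, adjusted p = 1.96e-09, 4.38e-10 and 2.93e-04). Both copies summed gave 1.01, 1.10 and 0.69. For HSPB1 the fall was smaller by 1.11 ± 0.10 and 1.04 ± 0.10 in the MRPL45 and CYC1 knockout lines, and the difference in UQCRFS1 knockout cells was 0.17 ± 0.10. CRELD2 fell less in MRPL45 knockout cells by 1.08 ± 0.14, and by 0.42 ± 0.13 in CYC1 knockout cells, where the call was lost without A673 DMSO replicate 2, A673 SP-2509 replicate 2, CYC1 knockout DMSO replicate 1 or SP-2509 replicate 1. CRYAB, which rose in A673, had differences of -3.54 ± 0.26, -3.27 ± 0.26 and -1.61 ± 0.39, and the last was lost without A673 DMSO replicate 1, UQCRFS1 knockout DMSO replicate 2 or SP-2509 replicate 2. Its DMSO level in the first 2 of these lines was already high, as given above.

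Other members separated the lines as well. DNAJB1 fell less in the MRPL45 and CYC1 knockout lines by 0.93 ± 0.09 and 0.72 ± 0.08, and its difference in UQCRFS1 knockout cells was 0.01 ± 0.08. The difference of SDF2L1 was called in MRPL45 knockout cells (0.93 ± 0.16), beside 0.24 ± 0.15 in CYC1 knockout cells. PDIA6 (0.76 ± 0.09 and 0.47 ± 0.09) and PDIA4 (0.71 ± 0.10 and 0.47 ± 0.10) fell less in the MRPL45 and CYC1 knockout lines. The rises of ERN1 (-0.70 ± 0.14 and -0.83 ± 0.14), HSF1 (-0.66 ± 0.09 and -0.70 ± 0.09) and ATF6 (-0.62 ± 0.08 and -0.26 ± 0.08) were smaller in these 2 lines, though ATF6 in CYC1 knockout cells lost its call without 1 library or another in 6 of 8 cases. HSPA8, called with SP-2509 in A673 only, differed in all 3 knockout lines (0.62 ± 0.10, 0.64 ± 0.10 and 0.59 ± 0.10). HERPUD1 was the 1 ER gene that rose more in every knockout line than in A673 (0.44 ± 0.09, 0.43 ± 0.09 and 0.38 ± 0.09). In UQCRFS1 knockout cells that call, the only ER difference there, was lost without A673 DMSO replicate 1 or without its own SP-2509 replicate 1. The response of P4HB was lower in CYC1 knockout cells (-0.38 ± 0.09), and that of XBP1 was higher (0.59 ± 0.09), where XBP1 had risen against a fall in A673.

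Counts of differences in the CYC1 and UQCRFS1 knockout lines depended on single libraries. The 5 ER genes called lower in CYC1 knockout cells became 2 without A673 DMSO replicate 1, A673 SP-2509 replicate 1, CYC1 knockout DMSO replicate 1 or either CYC1 knockout SP-2509 library, and 3 without A673 SP-2509 replicate 2. The members behind this are DNAJB11, SEL1L and ATF6. The cytosolic DNAJA1 lost its difference in CYC1 knockout cells (-0.22 ± 0.08) without each of 7 single libraries. In UQCRFS1 knockout cells the 3 cytosolic genes called higher became 5 without A673 DMSO replicate 1, and CRYAB, the 1 called lower, was lost as given above. There, 0 ER genes were called lower by edgeR, 2 by DESeq2, 2 without A673 DMSO replicate 2 and 1 without UQCRFS1 knockout DMSO replicate 1. HSP90B1 in CYC1 knockout cells (0.37 ± 0.11) and STIP1 and DNAJA1 in MRPL45 knockout cells (0.30 ± 0.09 and -0.31 ± 0.08) also rested on single libraries. The replicate block added calls for PDIA3 and BAG3 in MRPL45 knockout cells (edgeR adjusted p = 0.0482 and 0.0312), for DNAJB9, DNAJC3 and HSPA4 in CYC1 knockout cells (0.0375, 0.0327 and 0.0439) and for HSP90AB1 in UQCRFS1 knockout cells (0.0467).

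Other genes of the same pathways, from lists that hold none of the 38 members, also went both ways. With SP-2509 in A673, 10 of 22 other ER folding genes were called higher and 11 lower (median log2 fold change -0.12), 8 and 9 of 19 other ER-associated degradation genes (-0.15), and 5 and 7 of 13 other regulators of the unfolded protein response (-0.25). Of 28 other cytosolic chaperones and cofactors 15 were higher and 10 lower (0.29), and of 12 other subunits of TRiC and of prefoldin, which delivers actin and tubulin to it, 6 were higher and 3 lower (0.18). The largest changes were in the regulators: PPP1R15A, which restores translation under stress, rose by 4.64 ± 0.10 and DDIT3 (CHOP), a transcription factor of the PERK branch, by 2.80 ± 0.07, while CREB3L1, an ER-bound transcription factor, and CHAC1, which degrades glutathione, fell (log2 fold changes -3.30 ± 0.14 and -2.52 ± 0.11). In UQCRFS1 knockout cells PPP1R15A (4.62 ± 0.10) and DDIT3 (3.18 ± 0.07) rose and CREB3L1 (-4.20 ± 0.14) fell. HSPA6, another stress-induced HSP70, was also called lower there, with 1 and 0 reads with SP-2509 against 10 and 12 with DMSO. In the CYC1 and MRPL45 knockout lines TRIB3 (2.47 ± 0.07 and 1.44 ± 0.07) and PPP1R15A (2.38 ± 0.09 and 1.43 ± 0.09) rose most. Those that fell most were CREB3L1 (-2.48 ± 0.18) and DERL3 (-1.31 ± 0.26), a channel of ER-associated degradation, in CYC1 knockout cells, and HSPA6 (-1.48 ± 0.44) and DERL3 (-1.02 ± 0.32) in MRPL45 knockout cells. The last 2 rest on few reads. HSPA6 had 6 and 14 with SP-2509 against 41 and 19 with DMSO, and DERL3 had 9 and 17 against 35 and 21.

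The counts of these genes called with SP-2509 in the knockout lines stand beside shares over all genes of 10.4% higher and 8.09% lower in MRPL45 knockout cells, 18.7% and 14.7% in CYC1 knockout cells, 29.6% and 25.1% in UQCRFS1 knockout cells, and 31.6% and 26.4% in A673, so all genes also had fewer calls in the MRPL45 and CYC1 knockout lines than in A673. In MRPL45 knockout cells 2 other ER folding genes were higher and 2 lower, and 1 and 5 of the degradation genes, 4 and 5 of the regulators, 3 and 6 of the cytosolic chaperones and 2 and 0 of the TRiC and prefoldin subunits. The CYC1 knockout line had 7 and 11, 3 and 6, 5 and 3, 5 and 7, and 7 and 2 in the same order of lists. The UQCRFS1 knockout line had 9 and 10, 5 and 10, 4 and 7, 15 and 9, and 9 and 2. With DMSO, the small heat shock gene HSPB8, a partner of BAG3, differed most from A673, at 6.58 ± 0.33 in MRPL45 knockout cells. It had 312 and 173 reads there, against 4 and 1 in A673. DNAJA4 was 3.31 ± 0.23 in MRPL45 knockout cells, while DERL3 (-1.84 ± 0.25) and PPID (-1.56 ± 0.08) were lower there. Among the called genes of these lists, in CYC1 knockout cells FKBP9, a prolyl isomerase of the ER (0.93 ± 0.06), and HSPA4L (0.81 ± 0.10) were highest and CREB3L1 (-2.04 ± 0.13) and CHAC1 (-1.70 ± 0.11) lowest against A673, and in UQCRFS1 knockout cells CREB3L1 (0.91 ± 0.11) and HSPA2 (0.42 ± 0.10) were highest and DNAJB5 (-0.97 ± 0.12) and DERL3 (-0.78 ± 0.22) lowest.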

How the data were processed

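Poly(A) RNA of A673 and 3 knockout lines was sequenced in 16 libraries, 2 per group. The submitters' processing notes name STAR 2.5.2b, Trim Galore, FastQC, MultiQC, DESeq2 and the build hg19. Counting program, annotation and strand setting were not given in the sources used here. Of the 10 tables only the raw counts per gene were used, whole numbers that the authors deposited under that name per the file headers, joined by Ensembl identifier. Where a library occurs in more than 1 table, its counts were the same in all. Rows without a symbol held 2.41% to 8.59% of a library's counts and stayed in totals and tests.

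All 16 libraries entered 1 fit of edgeR 4.0.16 in R 4.3.3, with a mean per group, TMM scaling, filterByExpr by group (21633 genes, 8 residual degrees of freedom) and robust quasi-likelihood dispersions. The F-test takes both directions, with Benjamini-Hochberg adjustment over all genes of a comparison. The SE of a log2 fold change is its size over the square root of F. CPM uses TMM-scaled totals. The 10 comparisons are SP-2509 against DMSO in 4 lines, 3 knockout lines against A673 with DMSO, and 3 differences of response. No 2 replicates agreed within sampling noise (chi-square per degree of freedom of at least 21.0). The deviations of replicate 1 from 2 correlated between groups in all 28 pairs of groups (0.125 to 0.651), so libraries of the same replicate number deviated together. The labels state no pairing, and what the numbers pair is not known, so the main fit has no block. A fit with the replicate numbers as a block was run as well. The shares over all genes are from the main fit. Other alternatives were DESeq2 1.42.0, other scalings and filters, the compared libraries alone, leaving out each library, and HSPA1A and HSPA1B summed. The fit was tested on simulated data.

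The members and gene lists were chosen with earlier results of these data known. All members are named. Values per library are given for the member of each role group with the largest called change, for HSPA5, XBP1, HSF1, HSPA1A and HSPA1B, and for members whose response differed by 1 or more on the log2 scale. Of other lists, at most 2 genes per direction and comparison are named. Promoters are from RefSeq, and shared transcript stretches were counted in GENCODE transcripts on another build than the files, so no coordinates are given for the counts.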

Additional observations from a re-analysis of the deposited data

Results flagged for a closer look

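The values below are differences of 2 responses, the log2 fold change with SP-2509 in a knockout line minus that in A673. Each member listed is here because edgeR's test of the difference itself passed (Benjamini-Hochberg adjusted p under 0.05). Groups hold 2 libraries, so no library was tested for standing apart from its group. What underlies the differences was not tested.

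The response in MRPL45 knockout cells was higher than in A673 for the ER genes CRELD2 (1.08), SDF2L1 (0.93), PDIA6 (0.76), PDIA4 (0.71), HSP90B1 (0.57), HERPUD1 (0.44), HSPA5 (0.44) and MANF (0.31) and for the cytosolic genes HSPA1A (1.38), HSPB1 (1.11), DNAJB1 (0.93), HSPA1B (0.81), HSPA8 (0.62), HSP90AB1 (0.38), HSPA4 (0.34) and STIP1 (0.30). It was lower for the ER genes ERN1 (-0.70), ATF6 (-0.62) and SEL1L (-0.51) and for the cytosolic genes CRYAB (-3.54), HSF1 (-0.66), CCT2 (-0.55) and DNAJA1 (-0.31). In CYC1 knockout cells, the response was higher than in A673 for the ER genes XBP1 (0.59), PDIA6 (0.47), PDIA4 (0.47), HERPUD1 (0.43), CRELD2 (0.42), HYOU1 (0.38) and HSP90B1 (0.37) and for the cytosolic genes HSPA1A (1.58), HSPB1 (1.04), HSPA1B (0.84), DNAJB1 (0.72), HSPA8 (0.64) and HSP90AB1 (0.35). It was lower for the ER genes ERN1 (-0.83), P4HB (-0.38), DNAJB11 (-0.31), ATF6 (-0.26) and SEL1L (-0.25) and for the cytosolic genes CRYAB (-3.27), HSF1 (-0.70), CCT2 (-0.42) and DNAJA1 (-0.22). In UQCRFS1 knockout cells, the response was higher than in A673 for the ER gene HERPUD1 (0.38) and for the cytosolic genes HSPA1A (0.72), HSPA1B (0.69) and HSPA8 (0.59). It was lower for the cytosolic gene CRYAB (-1.61).
The 3 sets of differences share the A673 libraries.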

How the results depend on the processing

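Of the 380 member values (38 members in 10 comparisons), 231 were called by edgeR. DESeq2 ended 4 calls and added 9, relative log expression scaling 5 and 4, upper-quartile scaling 7 and 36, no filter 10 and 4, a filter of 5 CPM 8 and 40, and the compared libraries alone 12 and 8. The replicate block ended 0 calls and added 15, all given beside their results, and changed no other call. Summing HSPA1A and HSPA1B kept each of their calls. Leaving out 1 library at a time reversed no member, and 189 of the 231 calls held without each library of their comparison. Values that reversed are left out of these numbers of ended and added calls. They were those of CANX (-0.01 with upper-quartile scaling), HERPUD1 (-0.0 with it) and CCT5 (-0.16 with it and -0.15 with the 5 CPM filter), all with SP-2509 in A673. CANX and HERPUD1 lost their calls with that scaling, whereas CCT5 was called lower in both settings. With SP-2509, calls were also ended for CANX and HERPUD1 in A673 (no filter, 5 CPM filter, compared libraries alone), for P4HB there (upper-quartile scaling, 5 CPM filter), for CALR there (no filter), for CRYAB in MRPL45 knockout cells (relative log expression scaling, no filter, DESeq2), for DNAJB9 and ATF6 there (compared libraries alone) and for DNAJB4 in UQCRFS1 knockout cells (DESeq2). Against A673, those of DNAJB9 and HSPB1 in MRPL45 knockout cells (no filter), PDIA4 in CYC1 knockout cells (compared libraries alone), HSPB1 in UQCRFS1 knockout cells (compared libraries alone), HSP90B1 there (also relative log expression scaling) and P4HB there (both of these and no filter) ended. Of the differences, those of DNAJB11, SEL1L and ATF6 in CYC1 knockout cells (upper-quartile scaling, 5 CPM filter), DNAJA1 there (both of these, no filter, compared libraries alone) and in MRPL45 knockout cells (upper-quartile scaling), and CRELD2 in CYC1 knockout cells (DESeq2) ended. The cause of these changes was not tested.

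Counts of called members moved as follows. With SP-2509, ER genes higher in A673 were 4 with upper-quartile scaling and with the 5 CPM filter, and in MRPL45 knockout cells 2 with the compared libraries alone. There, cytosolic genes higher were 2 with relative log expression scaling, the 5 CPM filter, the replicate block and DESeq2, and those lower 8 with upper-quartile scaling and 10 with the 5 CPM filter. Against A673 with DMSO, ER genes higher in CYC1 knockout cells were 1 with both other scalings, both other filters and the compared libraries alone, and in UQCRFS1 knockout cells 1 with relative log expression scaling, no filter or the compared libraries alone, where cytosolic genes higher were 0, as with DESeq2. For the differences of response, ER genes higher were 14 (MRPL45) with upper-quartile scaling and the 5 CPM filter, and 11 and 12 (CYC1), with cytosolic genes higher at 10 (CYC1, 5 CPM filter) and 6 (UQCRFS1, both settings). ER genes lower were 2 (CYC1, both settings), 8 (CYC1, DESeq2) and 2 (UQCRFS1, DESeq2), and cytosolic genes lower 0 (UQCRFS1, compared libraries alone). At an unadjusted p under 0.05, the UQCRFS1 comparison with 0 ER genes lower had 3, and the count by DESeq2 is the 2 above.

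Without 1 library, the counts with SP-2509 ran from 2 to 4 ER higher, 2 to 3 ER lower and 3 to 5 cytosolic lower (MRPL45) and from 1 to 2 cytosolic higher (CYC1). Against A673 they ran from 1 to 4 ER higher, 6 to 10 ER lower and 1 to 2 cytosolic higher (CYC1), and from 1 to 3, 6 to 12 and 0 to 1 (UQCRFS1). For differences they ran from 2 to 7 ER lower (CYC1), and from 0 to 1 ER higher, 0 to 2 ER lower, 3 to 5 cytosolic higher and 0 to 1 cytosolic lower (UQCRFS1). Counts not listed here moved as well. With SP-2509 in A673, fewer ER genes were called higher whichever library of that comparison was left out. The ER genes called lower there, and those called lower in MRPL45 knockout cells against A673, also changed in number. Where a group keeps 1 library, its spread is taken from the other groups. Among the members, depth limits CRYAB most, with 9 to 12 reads in the DMSO libraries of A673 and the UQCRFS1 knockout line.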
